A study of Mus musculus with 8 samples.

Results

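The microRNA miR-365a was compared with a control microRNA (NC) on the 4 arrays of the 0.6 set, out of 8 arrays in the whole series. These are both arrays labelled with transfection of miR-365a and both NC arrays whose amount label reads 0.6 µg, all on one slide, with miR-365a at positions 1 and 3 and NC at positions 2 and 4. The labels do not say what the amount refers to. Every array carried Cy3-labelled total RNA, with an RNA integrity number of 10, of mSCC-20, a single tumour line that the labels describe as skin squamous cell carcinoma from FVB/N mice. The other 4 arrays, miR-193b and NC with an amount label of 0.2, entered the fit to measure the spread. They are also used below to ask whether a response differed between the microRNAs. By their titles they lie on several slides, so the spread they add may include differences between these slides, for which the fit has no term. Whether arrays of a group stem from separate cultures is not given in the labels, and the spread behind each p-value may therefore be technical.

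A microRNA guides an Argonaute protein to messenger RNAs, mostly by pairing of its seed, bases 2 to 8, with sites in the 3′ untranslated region, and lowers the stability and the translation of those messengers. miR-365a and miR-193b are made from neighbouring genes. In RefSeq on GRCm38.p6 the Mir193b hairpin lies at chr16:13449523-13449601 and the Mir365-1 hairpin 4238 bases further at chr16:13453840-13453926. A second gene for the same mature sequence, Mir365-2, lies on chromosome 11. The labels do not name the arm, and the 3p arm is taken here. The mature sequences are shown with the seed in capitals because the array probes are searched for its complement below; the seeds of the pair differ.
miR-365-3p, from chr16:13453895-13453916 and chr11:79726467-79726488: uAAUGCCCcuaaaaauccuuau
miR-193b-3p, from chr16:13449570-13449591: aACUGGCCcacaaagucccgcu

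Each array had 43020 gene spots, with 58.9% to 62.1% of them well above background on the arrays used here and none saturated. Levels below are log2 processed signals relative to the 75th percentile of their own array, so 0 is the level of that percentile and levels of different probes are not set against each other. The arrays do not measure mature microRNAs, and the transfected molecules themselves were not checked here. All 15 epithelial markers on the array were well above background on all 4 arrays. Of 6 fibroblast markers 2 were, with Col3a1, Dcn and Lum at background on every array. For the 6 leukocyte markers the number was 4, with Ptprc above background on 2 arrays. It was 4 of 6 for endothelial markers (Cdh5 and Tek at background) and 3 of 6 for melanocyte markers (Dct and Tyrp1 at background). The one marker of these other cell types that changed was Csf1r, a macrophage growth factor receptor, which had levels of -0.52 and 0.02 on the NC arrays and of 1.75 and 1.54 on the miR-365a arrays (log2 difference 1.90 ± 0.30, SE, adjusted p = 0.0100). It was called without NC array 2 and not without any of the other 3 arrays. The summed level of the leukocyte list, on the log2 scale, was 2.68 and 3.04 on the NC arrays and 3.21 and 3.35 on the miR-365a arrays.

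Transcripts of probes that carry the miR-365 seed match fell far more often than they rose. In the 60-base probes, which have the sense of the messenger, the complement of bases 2 to 8 is GGGCATT. It occurs in 123 probes, 0.312% of all probes on the array. Of 65 such probes well above background on all 4 arrays, each of a different gene, 28 fell and 1 rose, that of Hif1an, the hydroxylase that inhibits hypoxia-inducible factor, named after its value was seen (log2 difference 0.96). Over all 21827 probes tested the same way, 8.73% fell and 8.31% rose, against 43.1% (95% exact binomial interval 30.8 to 56.0%, for counting error only) and 1.54% of those with the match. The median log2 difference was -0.59 with the match and 0.02 over all probes. After miR-193b the same 65 probes had a median of 0.10.

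The share that fell was lower for the shorter match. Of 224 probes that match bases 2 to 7 but not base 8, 24.6% fell and 2.23% rose, with a median of -0.29. For the 9 probes with GGGCATTA, which adds the A opposite base 1 that Argonaute favours, 4 fell and 0 rose, with a median of -0.81 and 5 of them not called. Probes with AATGCCC, the same letters on the other strand, served as a comparison chosen after the data were seen: 1 of 68 fell and 4 rose. Those with GGCCAGT, the complement of the miR-193b seed, split into 7 that fell and 9 that rose of 73. Read from the genes instead, the match to bases 2 to 8 stood in the probe of 1.64% of the genes that fell, 2.69% of those that fell at least 2-fold and 0.0704% of those that rose, and of 0.322% of all genes tested. A probe covers 60 bases of a transcript, so sites elsewhere in the transcript were not seen, and which part of the transcript a probe comes from was not determined.

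**Figure D1:**
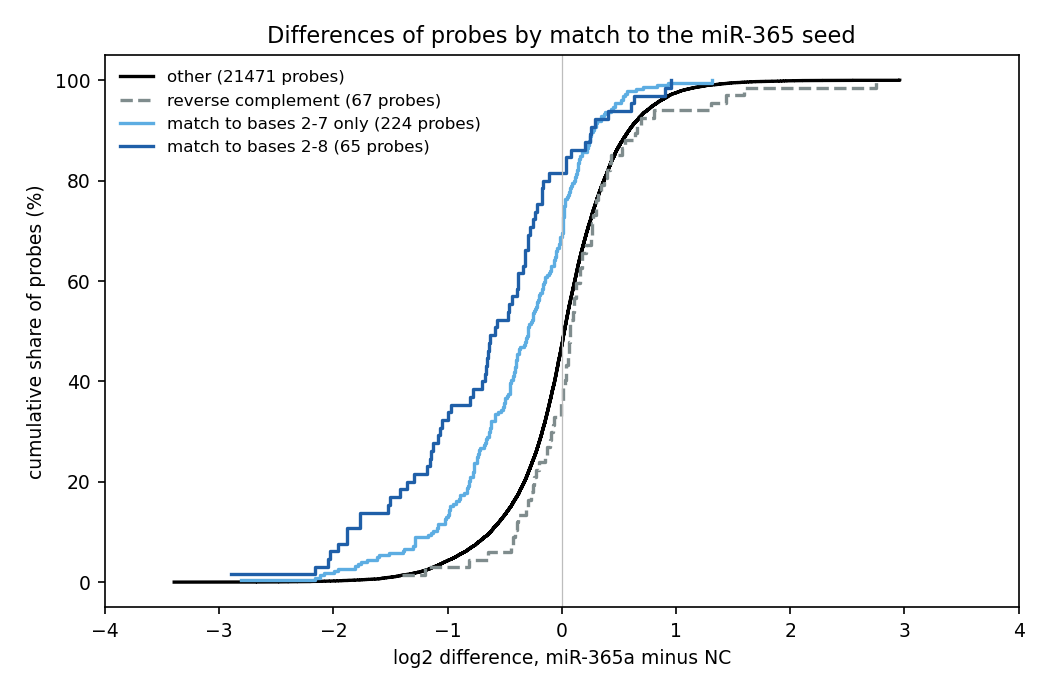
Cumulative share of probes (vertical axis, %) with a log2 difference between miR-365a and NC up to the value on the horizontal axis, for probes with the complement of seed bases 2 to 8 (65 probes), of bases 2 to 7 only (224), of the reverse complement (without 1 probe that also holds a match) and for all others. The curve of the match to bases 2 to 8 lies furthest left, with a median of -0.59, and that of the shorter match between it and the others.

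The matches are shown for the 4 genes that fell with an 8-base match and for the 4 largest falls with a 7-base match, chosen after their values were seen. Each line gives the stretch of the probe that would face the microRNA, written 5′ to 3′ with the match in capitals. Positions of probes here and below are mm9, as in the deposited files.
Vbp1, probe at chrX:72779699-72779758, strand +: ctttagtacttgaaGGGCATTA
Pmm1, probe at chr15:81781542-81781601, strand -: gaatggcagagaagGGGCATTA
Sc5d, probe at chr9:42062857-42062916, strand -: caccttactctctgGGGCATTA
Plk3, probe at chr4:116801317-116801376, strand -: gctcccagctaggGGGCATTA
Pbdc1, probe at chrX:102312370-102312429, strand +: aatcacactgttGGGCATTt
Suclg2, probe at chr6:95424712-95424771, strand -: aggttcattcacaaGGGCATTt
Adm, probe at chr7:117773088-117773147, strand +: taaGGGCATTt
Nme1, probe at chr11:93820337-93820396, strand -: tgagacacaaGGGCATTt

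Pmm1, a phosphomannomutase of protein glycosylation, had levels of 3.96 and 3.81 on the NC arrays and of 1.98 and 2.03 after miR-365a (log2 difference -1.88 ± 0.12, adjusted p = 0.00173), and its other probe was called too. Vbp1, a prefoldin subunit that delivers new proteins to the chaperonin, had 1.70 and 1.49 against -0.19 and -0.54 (-1.96 ± 0.17, adjusted p = 0.0025). Sc5d, the desaturase of a late step of cholesterol synthesis, had 2.91 and 2.80 against 1.47 and 1.20 (-1.52 ± 0.13). Plk3, a stress-responsive polo-like kinase, fell least, from 1.39 and 1.61 to 0.95 and 0.87 (-0.59 ± 0.14, adjusted p = 0.0316), and kept its call in no fit with one array left out. Among the 7-base matches, Pbdc1 went from 0.55 and 0.64 to -2.30 on both arrays, a 7.44-fold fall (-2.89 ± 0.12), more than in its brightest probe (-1.41). Nme1, a nucleoside diphosphate kinase, went from 3.59 and 3.39 to 1.54 and 1.39 (-2.03 ± 0.12), whereas its brightest probe was not called (-0.11). Suclg2, the GTP-specific subunit of succinyl-CoA ligase, went from 0.44 and 0.32 to -1.70 and -1.86. Their miR-193b differences lay between -0.23 and 0.39. Among the 54 genes whose brightest probe holds the 7-base match, 24 fell with all arrays and 15, 16, 13 and 11 without NC array 1, NC array 2, miR-365a array 1 and miR-365a array 2, with medians between -0.62 and -0.56.

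Across the whole array about as many genes rose as fell, but the falls were larger. Of 16763 genes tested 2883 were called, which is 17.2%, at an adjusted p under 0.05 in limma with Benjamini-Hochberg adjustment. They comprised 1421 rises (8.48%) and 1462 falls (8.72%). By at least 2-fold 315 rose and 633 fell, and by at least 4-fold 10 rose and 39 fell. The median log2 difference was 0.74 among rises, -0.924 among falls and 0.0174 over all genes tested. The NC and miR-365a arrays did not overlap for any of the 2883, nor for 61.6% of all genes. Falls of 2-fold or more outnumbered such rises in each of 4 equal bins of signal level, by 103 to 94 in the dimmest and by 123 to 23 in the brightest. The number of calls rested on all 4 arrays: it was 811 without NC array 1, 1513 without NC array 2, 776 without miR-365a array 1 and 675 without miR-365a array 2, with falls ahead of rises each time (465 to 878 against 210 to 635).

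**Figure D2:**
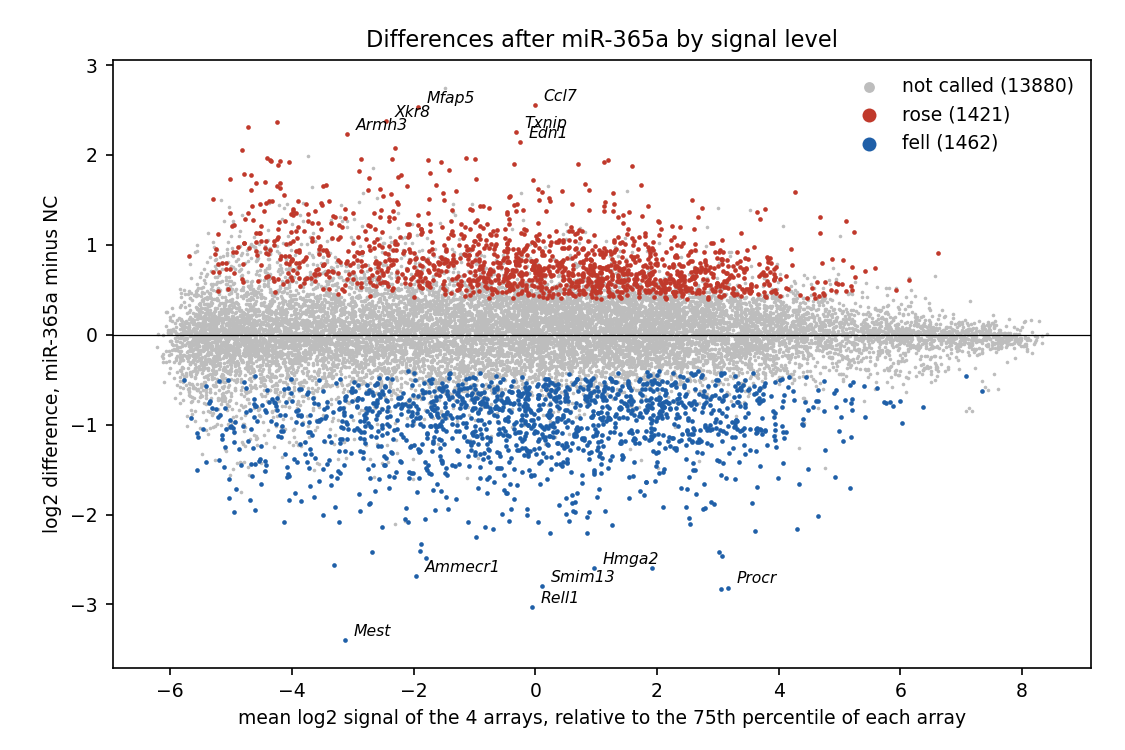
Log2 difference between miR-365a and NC (vertical axis) against the mean log2 signal of the 4 arrays relative to each array's 75th percentile (horizontal axis), 1 point per gene tested, with 1421 genes that rose, 1462 that fell and 13880 not called. The 39 falls of at least 4-fold reach -3.39 for Mest, and rises stay within 2.55 among named genes.

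The largest falls were of genes with unrelated roles. Mest, an imprinted gene of the hydrolase fold family, had levels of -1.70 and -1.16 on the NC arrays and of -4.86 and -4.79 after miR-365a, a 10.5-fold fall (log2 difference -3.39 ± 0.30, adjusted p = 0.00244). Rell1, a relative of the tumour necrosis factor receptor RELT, went from 1.38 and 1.53 to -1.44 and -1.70 (-3.03 ± 0.17). Procr, the protein C receptor, went from 4.30 and 4.84 to 1.85 and 1.67 (-2.81 ± 0.24). In each case the groups lay further apart than the arrays within a group. Hmga2, a chromatin architecture protein of embryonic and tumour cells, had a wider spread, with 1.90 and 2.64 against -0.68 and 0.02 (-2.60 ± 0.35, adjusted p = 0.00649), and its second probe fell too (-2.38). Its relative Hmga1 fell less, from 6.77 and 6.78 to 5.89 and 6.06 (-0.80 ± 0.11), with 2 of 3 probes called.

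The rest of the 12 largest falls were Smim13 (-2.79 ± 0.15), the X-linked gene Ammecr1 (-2.68 ± 0.18), Oaz2 (-2.46 ± 0.17), Golm2 of the Golgi membrane (-2.42 ± 0.21), Sfmbt1, a chromatin reader (-2.40 ± 0.16), Erp44, which retains secretory proteins in the endoplasmic reticulum (-2.33 ± 0.19), Rfk, the riboflavin kinase (-2.25 ± 0.12), and Lmnb1, encoding lamin B1 of the nuclear envelope (-2.21 ± 0.13). Oaz2 encodes an antizyme that triggers degradation of ornithine decarboxylase. Its brightest probe went from 4.27 and 4.31 to 1.95 and 1.71, but its second probe, above background on all 4 arrays, was not called (log2 difference -0.00). Odc1, ornithine decarboxylase itself, fell with all 4 of its probes (-2.63 to -1.81); its brightest went from 4.48 and 4.51 to 2.69 and 2.56. All 12 kept their call without any single array.

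**Figure D3:**
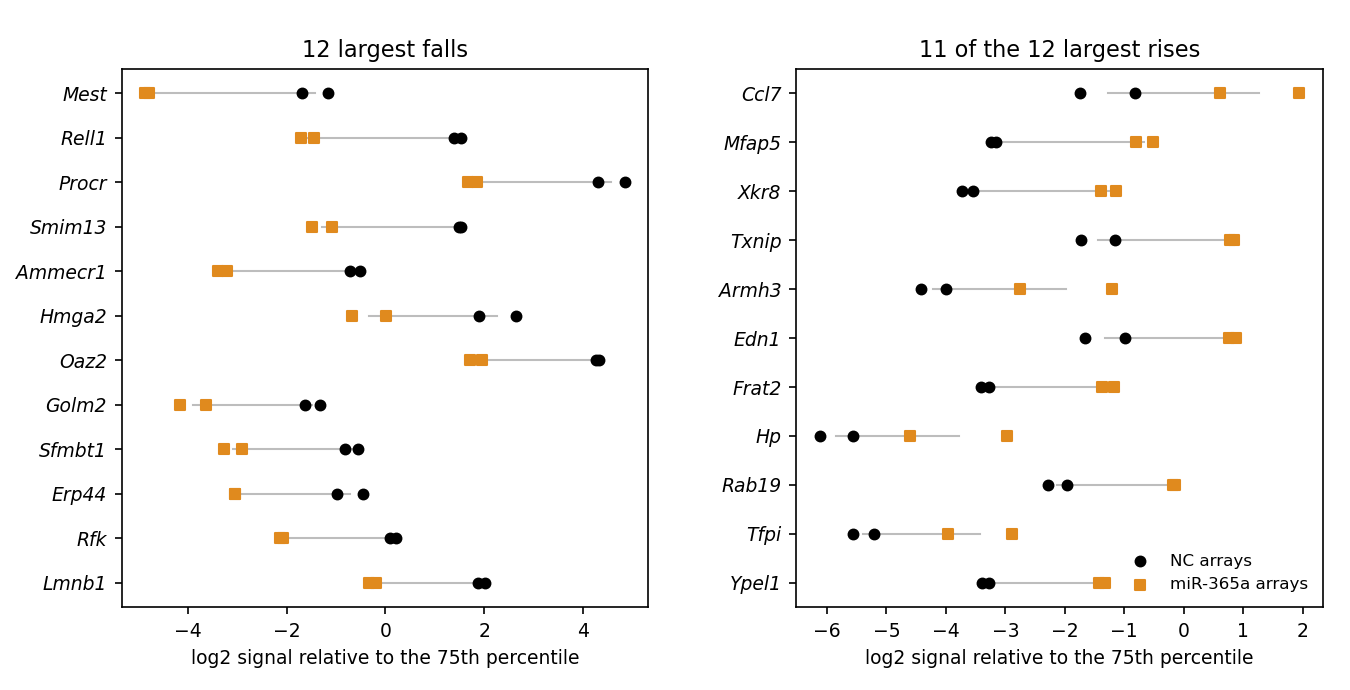
Log2 signal relative to the 75th percentile (horizontal axes) of each NC array (circles) and each miR-365a array (squares) for the 12 largest falls (left) and 11 of the 12 largest rises (right); grey lines join the group means. The groups do not overlap for any gene, and the squares of a gene lie further apart for Hp, Armh3 and Ccl7 than for the falls.

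Of the 12 largest rises, 5 were of secreted proteins. Ccl7, a chemokine that attracts monocytes, had the largest rise and one of the widest spreads, with levels of -0.81 and -1.75 on the NC arrays and of 1.94 and 0.61 after miR-365a (log2 difference 2.55 ± 0.49, adjusted p = 0.0177). Mfap5, a glycoprotein of elastic microfibrils, went from -3.15 and -3.24 to -0.52 and -0.80 (2.54 ± 0.25). Edn1, encoding the peptide endothelin-1, went from -1.65 and -0.99 to 0.77 and 0.88 (2.15 ± 0.39). Hp, haptoglobin, rose 4.16-fold (2.06 ± 0.54, adjusted p = 0.0467) with miR-365a arrays that lay apart from each other, at -2.97 and -4.60. Tfpi, the inhibitor of tissue factor, rose 3.91-fold, and its second probe had 1.25 and was not called.

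Of the other rises, Xkr8, the membrane scramblase that exposes phosphatidylserine on dying cells, went from -3.73 and -3.54 to -1.38 and -1.14, a 5.18-fold rise (2.37 ± 0.14, adjusted p = 0.00173). Txnip, which binds thioredoxin and restrains glucose uptake, went from -1.74 and -1.15 to 0.78 and 0.84 (2.25 ± 0.22), and its second probe rose as well (2.03). Ypel1 rose 3.88-fold from -3.39 and -3.28 to -1.33 and -1.43, with both of its probes. Then came Frat2, an inhibitor of glycogen synthase kinase 3 (2.07 ± 0.37), Rab19, a small GTPase (1.97 ± 0.40), and Armh3 (2.23 ± 0.48), of which a second probe stood at 0.70 and was not called. Mfap5, Xkr8, Txnip and Ypel1 kept their call without any single array; Ccl7 kept it in 2 of the 4 fits with one array left out, Armh3, Edn1, Hp and Tfpi in 1 and Frat2 and Rab19 in 0.

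Another 6 called genes were named for the strong signal of their probes, a rank of probes and not of transcripts. They were H2ac15, one of many near-identical histone genes whose signal may be shared (-0.63 ± 0.17), the glycolytic enzyme Aldoa (from 7.31 on both NC arrays to 6.90 and 6.81), the galectin Lgals3 (from 6.15 and 6.17 to 7.06 and 7.08), Hmga1, the simple-epithelial keratin Krt8 (from 5.76 and 5.90 to 6.42 and 6.45) and the chromatin protein Morf4l2 (from 6.43 and 6.30 to 5.65 and 5.61). In none did the change reach 2-fold, and neither of the 2 probes of H2ac15 was called in the fit over all probes. Krt5, a basal keratin among the epithelial markers, was not called, with 8.34 and 8.46 against 8.23 and 8.59 (adjusted p = 0.990).

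Genes reported elsewhere as direct miR-365 targets are the first list described. Within that list 17 genes are on the array and 12 were tested; 6 fell and none rose, against 8.72% and 8.48% over all genes, and the median log2 difference was -0.64. The list may hold genes that the submitters picked from these arrays, so it is no independent evidence of its direction. The 6 were Ccnd1, the G1 cyclin (from 4.51 and 4.89 to 2.30 and 2.73), the transcription factor gene Nfib (from 3.20 and 2.93 to 1.16 and 1.14), the vasodilator peptide gene Adm (from -1.09 and -0.50 to -2.99 and -2.69), the arrestin gene Arrb2, the deacetylase gene Hdac4 and the homeobox gene Hoxa9. Of these, the probe of Adm carries the 7-base seed match shown above. Differences of the 6 others were -0.50 for the phosphatase Cdc25a, -0.43 for the deubiquitinase Usp33, -0.42 for the survival factor Bcl2, -0.19 for its antagonist Bax, 0.16 for the adaptor Shc1 and 0.33 for Max. With one array left out the list held 3 to 5 falls. Its miR-193b median was -0.11.

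**Figure D4:**
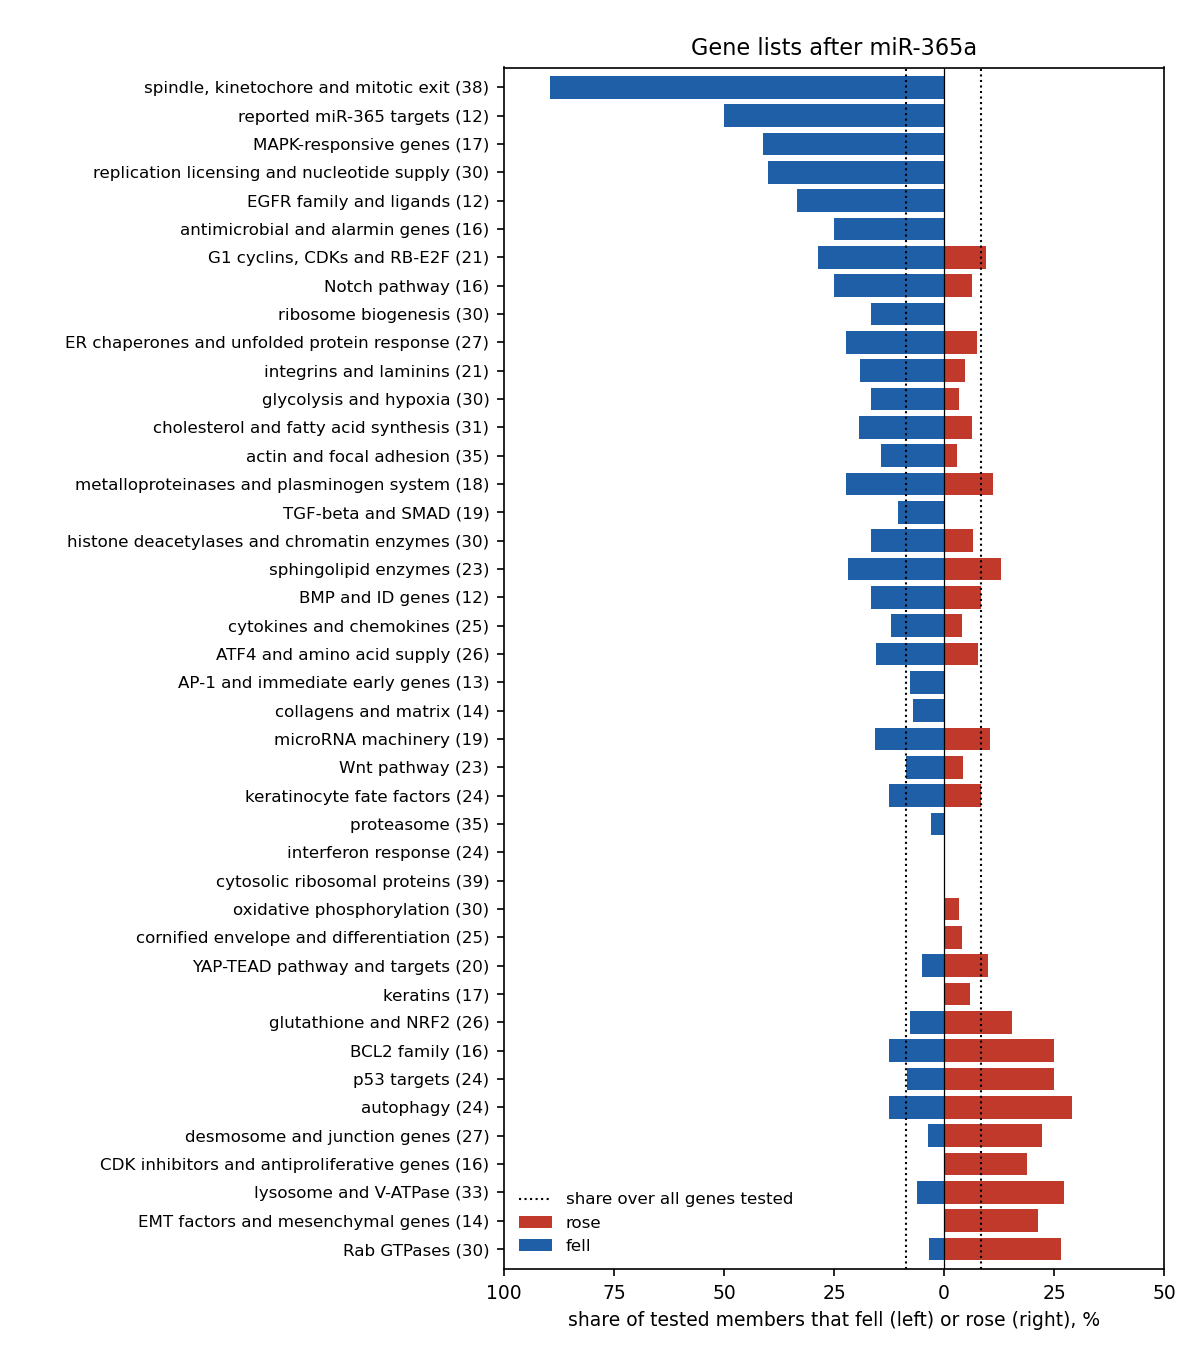
Share of the tested members of each gene list that fell (bars to the left, %) or rose (bars to the right, %) after miR-365a, for 42 lists with the number tested in brackets; dotted lines mark 8.72% and 8.48%, the shares over all genes. The spindle list reaches furthest left, with 34 of 38 members that fell, and the lists of Rab GTPases, lysosome and autophagy stand among those with most rises.

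Nearly all genes of chromosome segregation fell: 34 of 38 tested were called lower and none rose, and all 38 lay below 0 (median -0.95). The list's median level was 2.46 and 2.33 on the NC arrays and 1.61 and 1.35 after miR-365a. Without NC array 1 there were 12 falls, without NC array 2 28, without miR-365a array 1 25 and without miR-365a array 2 8, with medians between -1.08 and -0.82. By the brightest probe of each gene, Nek2, a centrosome kinase, fell most, from 0.18 and -0.02 to -1.47 and -1.88 (-1.76 ± 0.21). Ccnf, an F-box cyclin, Bub1b and Ttk, kinases of the spindle checkpoint, had differences of -1.14, -1.10 and -1.06. After miR-193b the same list had a median of -0.53, and none of its genes passed the test for unequal effects of the microRNAs.

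Promoters of these genes were examined because the members moved together. Cell cycle genes of the G2 and M phases are typically controlled by the cell cycle homology region, here searched as TTTGAA on both strands, and by CCAAT boxes, searched as CCAAT on both strands; the motifs do not overlap. In RefSeq windows from 250 bases before to 50 after the start, matched for 10758 of the genes tested, 12.3% held TTTGAA, 38.9% CCAAT and 5.18% both. Of 30 spindle genes that fell and have a window, 22 held TTTGAA (73.3%), 25 held CCAAT (83.3%) and 20 held both (66.7%). Over all genes that fell, the shares were 15.2%, 40.7% and 8.33%, and over all that rose 9.65%, 41.9% and 3.43%. The spindle list was drawn up by role in cell division, and 34 of its 38 tested members fell. Its shares therefore describe the list as chosen, and none is given for members that did not fall. A match is a run of letters, not a shown binding site. The shares are for the longer window, and fewer of the spindle genes held TTTGAA in the last 150 bases before the start. Those with the largest falls, Nek2 among them, held no TTTGAA in that shorter stretch. Among the spindle genes with both motifs in the last 150 bases before the start, the 3 largest falls were those of Cdc20, Ccnf and Espl1, shown on GRCm38.p6 with the motifs in capitals.
Cdc20, chr4:118437344-118437493, strand -: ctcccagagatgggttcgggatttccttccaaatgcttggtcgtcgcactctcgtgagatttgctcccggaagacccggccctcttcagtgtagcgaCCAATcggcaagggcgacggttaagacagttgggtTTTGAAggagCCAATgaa
Ccnf, chr17:24251410-24251559, strand -: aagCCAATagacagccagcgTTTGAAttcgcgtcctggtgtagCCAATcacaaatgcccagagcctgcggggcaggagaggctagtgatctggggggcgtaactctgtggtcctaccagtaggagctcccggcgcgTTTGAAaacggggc
Espl1, chr15:102296143-102296292, strand +: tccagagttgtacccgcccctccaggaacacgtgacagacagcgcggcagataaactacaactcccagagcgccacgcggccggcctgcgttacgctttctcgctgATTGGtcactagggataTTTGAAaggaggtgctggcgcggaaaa

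Cdc20, the activator of the anaphase-promoting complex, had levels of 4.55 and 4.77 on the NC arrays and of 3.51 on both miR-365a arrays (-1.15 ± 0.14). Espl1, the separase that opens sister chromatids, went from 0.28 and -0.09 to -0.89 and -1.16 (-1.12 ± 0.20). DNA replication genes fell less uniformly: 12 of 30 fell and none rose, with 29 below 0 and a median of -0.65. This list depended on the NC arrays, with 5 falls and a median of -0.38 without NC array 1 and 18 falls and a median of -0.92 without NC array 2; there were 4 falls without miR-365a array 1 and 5 without miR-365a array 2. Cdc6, which loads the helicase, went from -0.58 and -0.78 to -2.84 and -2.41, a 3.85-fold fall, and Mcm5, a helicase subunit, from 3.89 and 3.31 to 1.89 and 1.98. Of 11 replication genes that fell and have a promoter window, 2 held TTTGAA.

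Among G1 cyclins, kinases and the RB-E2F genes 6 of 21 fell and 2 rose (3 to 7 falls with one array left out). Besides Ccnd1 they included the repressor E2f8 (from 1.95 and 1.54 to 0.15 and 0.24), the ubiquitin ligase subunit Skp2 (-1.28 ± 0.17) and the activator E2f2 (-1.53 ± 0.24). Inhibitors of cell cycle kinases and antiproliferative genes were called higher in 3 of 16 and lower in none, with 9 above 0 and 7 below. Over all genes 8.72% fell and 8.48% rose, and the 2 rises among the G1 genes were near the latter share. Cdkn2b, encoding p15, went from -1.42 and -0.96 to 0.29 and 0.38 (1.53 ± 0.20) with both probes, its neighbour Cdkn2a from 2.56 and 2.70 to 3.37 and 3.58 (0.84 ± 0.15) with both probes, and the antiproliferative gene Tob1 by 0.58 ± 0.13. Each fit with one array left out held 1 rise, and Cdkn2b kept its call each time.

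The p53 targets that rose included death genes. Over all genes 8.48% rose and 8.72% fell, and the falls among p53 targets were near that share. Of 24 p53 targets 6 rose and 2 fell, with a median of 0.45, and there were 3 to 6 rises and 0 falls with one array left out. Bbc3 and Pmaip1, which encode the BH3-only death proteins PUMA and NOXA, went from 0.25 and -0.08 to 1.87 and 1.52 (1.61 ± 0.21) and from 1.66 and 2.00 to 3.39 and 3.26 (1.50 ± 0.17). Trp53inp1, a stress-induced nuclear protein, rose by 1.48 ± 0.16 and the death receptor Tnfrsf10b by 0.81 ± 0.14. In the BCL2 family, which holds Bbc3 and Pmaip1 too, 4 of 16 rose and 2 fell. Bcl2l11, encoding BIM, rose from -2.97 and -2.96 to -2.18 and -2.15, whereas Bnip3l, a mitophagy receptor, fell with all 4 of its probes (-1.38 to -1.15). The effects of Trp53inp1 and Pmaip1 also differed from those after miR-193b (by 1.91, adjusted p = 0.0118, and by 1.23, adjusted p = 0.0411). That of Bbc3, which had a miR-193b difference of 1.16, did not pass that test (by 0.45, adjusted p = 0.437).

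Several growth factors that signal through the EGF receptor family fell, where 8.72% of all genes fell and 8.48% rose, and the receptors were not called. In that list 4 of 12 fell and none rose (1 fall without miR-365a array 2, 2 without miR-365a array 1 or NC array 2, 4 without NC array 1), and all 4 were ligands. Nrg1 went from 3.53 and 4.06 to 2.42 and 2.32 (-1.43 ± 0.33), Tgfa from -2.86 and -3.0 to -4.18 and -4.42 (-1.37 ± 0.14), Ereg from 0.46 and 1.00 to -0.31 and -0.50 (-1.14 ± 0.20) and Areg from -2.77 and -2.48 to -3.29 and -3.90 (-0.97 ± 0.24). The ligands Hbegf (-0.83), Epgn (-1.11) and Egf (0.20) were not called, nor were the receptors Egfr (0.19), Erbb2 (0.10) and Erbb3 (0.73). For Tgfa and Ereg the response also differed from that after miR-193b. The proteases that release such ligands from the membrane, Adam17 and Adam10, fell too (-0.89 ± 0.18 and -0.58 ± 0.12). Neither kept its call in any fit with one array left out, and nor did Nrg1. Nor did Etv4 and Etv5 of the MAP kinase list given next, in which Ccnd1, described above, is counted again. Of 17 genes that respond to MAP kinase signalling 7 fell and none rose (2 to 3 falls with one array left out), among them Spred1, Etv4 and Etv5 (-1.10, -1.26 and -0.77).

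Among junction genes 6 of 27 rose and 1 fell (2 to 4 rises and 0 falls with one array left out). Marveld2, the tricellular junction protein tricellulin, went from -1.05 and -0.88 to 0.10 and 0.08 (1.06 ± 0.12), beta-catenin, Ctnnb1, from 2.42 and 2.31 to 3.22 and 3.17 (0.83 ± 0.11), the tight junction protein Cgn from 1.08 and 1.27 to 2.00 and 2.06, and the adhesion molecule F11r from 3.34 and 3.43 to 4.22 and 4.27. The effects on the first 3 differed from those of miR-193b, under which their differences were -0.19 to -0.01, whereas F11r had 0.91 there. Integrins and laminins had 4 falls and 1 rise of 21 (2 to 4 falls with one array left out): Lamc1, a laminin chain of the basement membrane, fell from 1.41 and 1.68 to 0.00 and -0.02, and the hyaluronan receptor Cd44 from 2.99 and 3.72 to 1.66 and 1.62, with 2 of its 4 probes called. Itga6, the basal cell integrin, had -0.80 ± 0.14 in its brightest probe and 0.17 in another, while Itgb5 rose from 1.93 and 2.11 to 3.19 on both arrays. In either direction 25.9% of the junction genes and 23.8% of the integrins and laminins were called, against 17.2% of all genes. Over all genes 8.48% rose and 8.72% fell.

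In the cytoskeleton 5 of 35 genes fell and 1 rose (2 to 3 falls with one array left out), with Tpm4, a tropomyosin, from 5.53 and 5.89 to 4.12 and 4.13 (-1.58 ± 0.16), Ptk2, the focal adhesion kinase, from 0.40 and 0.71 to -0.89 and -0.69, and Pfn1, profilin, by -0.99 ± 0.17 in one probe and 0.02 in the other. Of 19 TGF-beta genes 2 fell, among them the mediator Smad3 (from 1.02 and 1.30 to -0.40 and -0.10), whose response also differed from that of miR-193b. Wwtr1, encoding TAZ, went from -0.92 and -1.03 to -2.25 and -2.78, its inhibitory kinase Lats2 rose by 0.95 ± 0.21 and the upstream tumour suppressor Nf2 by 0.45 ± 0.12, so that 2 of 20 YAP and TEAD genes rose and 1 fell (0 to 2 rises with one array left out). The shares called in the TGF-beta and YAP lists are near the 8.72% and 8.48% of all genes that fell and rose. In the cytoskeleton list 17.1% were called in either direction, against 17.2% of all genes. In the Notch list 4 of 16 fell (1 to 3 with one array left out), among them Rbpj, the DNA-binding factor of the pathway (from -0.82 and -0.76 to -1.97 and -1.90), and its feedback inhibitor Nrarp rose from -2.71 and -2.69 to -1.68 and -1.25. The medians of these lists, between -0.12 and 0.06, changed sign without one array or another.

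Of 33 lysosome genes 9 rose and 2 fell, against 8.48% and 8.72% of all genes (median 0.27). The enzymes Neu1, a sialidase (from 1.53 and 1.50 to 2.52 and 2.32), and Ctsa, its partner protein (from 3.55 and 3.62 to 4.25 and 4.42), rose with the lipid handlers Npc1, Npc2 and Smpd1 (0.82, 0.67 and 0.82), and both main membrane glycoproteins fell, Lamp1 from 6.09 and 6.20 to 5.45 and 5.33 and Lamp2 by -0.82 ± 0.13 in one probe with 0.46 in the other. Of 30 Rab GTPases, switches of vesicle traffic, 8 rose and 1 fell (median 0.28), led by Rab32 of lysosome-related organelles (from 1.78 and 2.25 to 3.31 and 3.34) and the early endosome gene Rab5b (from 1.67 and 1.83 to 2.74 and 2.70, all 4 probes). Of 24 autophagy genes 7 rose and 3 fell (median 0.34). The initiating kinases Ulk1 and Ulk2 rose from 2.39 and 2.58 to 3.43 and 3.39 and from -1.45 and -1.17 to -0.22 and -0.14, and the paralogs Gabarap and Gabarapl1 moved in opposite directions (0.84 and -0.94). With one array left out the counts were smaller. The lysosome list had 0 rises and 1 fall without NC array 1, 6 and 1 without NC array 2, 1 and 2 without miR-365a array 1 and 1 and 0 without miR-365a array 2, so that its excess of rises did not hold in every fit. There were 1 to 5 rises and 0 falls for Rab and 2 to 6 rises and 0 to 1 falls for autophagy, whereas the medians stayed between 0.16 and 0.35. After miR-193b the medians were 0.18, 0.14 and 0.20.

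Among lipid genes the falls and rises were mixed, where 8.72% of all genes fell and 8.48% rose. In cholesterol and fatty acid synthesis 6 of 31 fell and 2 rose (1 to 2 falls with one array left out). Besides Sc5d, the desaturase Fads1 (-1.23 ± 0.20) and the regulator Srebf2 (from 0.47 and 0.32 to -0.87 and -1.32) fell, and Acly, which supplies acetyl-CoA, rose (0.59 ± 0.11). Of 23 sphingolipid enzymes 5 fell and 3 rose (2 to 4 falls with one array left out). Ugcg, the glucosylceramide synthase, fell from -0.68 and -0.66 to -2.24 and -2.59 (-1.74 ± 0.15), Cers2, a ceramide synthase, from 0.92 and 0.74 to -0.13 and -0.37, and Sgpp1, a sphingosine phosphate phosphatase, from 3.01 and 2.96 to 2.05 and 2.03, while the kinase Sphk2 rose from 1.93 and 1.79 to 2.69 and 2.75. The responses of Ugcg, Sgpp1 and Sphk2 differed from those after miR-193b. In the hypoxia and glycolysis list 5 of 30 fell and 1 rose (1 to 3 falls with one array left out): Vegfa, the angiogenic growth factor, from -0.73 and -1.50 to -2.67 and -3.66 with both probes, the lactate exporter Slc16a3 from 4.30 and 4.03 to 3.13 and 2.63, and Pfkfb3 by -0.84 ± 0.16, in addition to Adm.

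Of 27 genes of the endoplasmic reticulum 6 fell and 2 rose (0 to 4 falls with one array left out). Over all genes 8.72% fell and 8.48% rose, and 17.2% were called in either direction, against 29.6% here. In the silencing, antioxidant and chromatin lists that follow, 26.3%, 23.1% and 23.3% were called. Rises in the endoplasmic reticulum, silencing and chromatin lists and falls in the antioxidant list were near the shares of all genes. The chaperones Pdia6 (from 5.35 and 5.70 to 4.43 and 4.47) and Creld2 (from 4.29 and 4.77 to 3.32 and 3.40) fell. The stress sensor Atf6 fell too (-1.40 ± 0.25). Sel1l, of the degradation machinery, rose from -1.81 and -1.71 to -0.63 and -0.49, with a difference of 1.20 against 1.15 after miR-193b. In the silencing machinery 3 of 19 fell and 2 rose (0 to 1 falls with one array left out): Tnrc6c, the Argonaute partner (-1.19 ± 0.24), the deadenylase subunit Cnot6 with all 3 probes (-1.27 to -1.06) and Ago1 (-0.72 ± 0.14) fell, and Prkra, a Dicer partner, rose (1.05 ± 0.16). Of 26 antioxidant genes 4 rose (0 to 1 with one array left out), Gpx4 and Mgst1 among them (0.56 and 0.79), and 2 fell, the sulfiredoxin Srxn1 and the glutathione reductase Gsr (-0.96 and -0.83). Chromatin enzymes had 5 falls and 2 rises of 30 (1 to 3 falls with one array left out), with the acetyltransferase Kat2a (-1.13 ± 0.15) and the methyltransferase Dnmt3b (-0.79 ± 0.15) lower and the demethylase Kdm5b (0.73 ± 0.14) higher.

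Of 16 antimicrobial and alarmin genes 4 fell (2 to 3 with one array left out), with S100a14 from 5.57 and 5.73 to 3.77 and 3.51 (-2.01 ± 0.17), Hmgb1 in 6 of its 8 probes, and Wfdc2 in both of its probes (-0.59 ± 0.13 in the brighter); Defb14 is described with the contrast to miR-193b. Of 25 cytokines 3 fell (1 to 4 with one array left out), a share near the 8.72% of all genes, and 15 lay above 0 with a median of 0.16. Those that fell were Il24, Csf3 and the prostaglandin synthase Ptgs2 (-1.32, -1.42 and -1.16), and Ccl7 rose. Interferon response genes lay above 0 in 23 of 24 cases with a median of 0.62, but none was called in limma and 3 had an unadjusted p under 0.05. Their median level was -1.89 and -1.26 on the NC arrays and -0.90 and -0.76 after miR-365a, and the median difference ranged from 0.35 without NC array 1 to 0.95 without NC array 2. Differentiation genes of the epidermis (1 rise of 25) and keratins (1 rise of 17) had fewer calls than the 17.2% of all genes, as did oxidative phosphorylation (1 rise of 30) and the proteasome (1 fall of 35). Among 39 cytosolic ribosomal proteins limma called none, and none had an unadjusted p under 0.05.

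The responses to miR-365a and miR-193b were set against each other in the fit, each measured against its own pair of NC arrays, so that no array is shared. Set, slide and amount differ between the comparisons, and their part in a difference of effects cannot be told apart from that of the microRNA. The miR-193b comparison itself runs across several slides, so slide is partly mixed with its effect. Of 14566 genes above background on all 8 arrays, the effects differed for 756 (5.19%), 526 with the lower and 230 with the higher value after miR-365a. Among falls of at least 2-fold on these arrays the effect differed for 300 of 620, whose median was -0.147 after miR-193b. Among such rises it differed for 42 of 269, whose median was 0.494. Both groups were chosen by their miR-365a difference, which also enters the test, so shares above 5.19% follow in part from that choice. The calls were few without one array: 150 without NC array 1, and 0 without NC array 2 (2698 at an unadjusted p under 0.05) or either miR-365a array (2356 and 2346).

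Defb14, a beta-defensin of the skin, had the largest difference of effects among named genes. Defb14 fell from 1.09 and 2.05 to -0.22 and -0.17 after miR-365a (-1.76 ± 0.33) and had a difference of 1.94 ± 0.33 after miR-193b, so that the effects differed by -3.70 (adjusted p = 0.0135). Dennd6a, a Rab activator, followed, from 1.05 and 1.12 to -1.03 and -0.96 against a miR-193b difference of 1.08; its second probe had 0.38 after miR-365a. Mest, Golm2, Ammecr1 and Oaz2 came next, with miR-193b differences between -0.32 and 0.51. In the other direction Xkr8 led (by 2.72, adjusted p = 0.00937). For Apln, the peptide apelin (by 2.56), and the acetyltransferase Kat2b (by 2.16) the miR-193b differences were -2.23 and -1.90, and the miR-365a differences of 0.33 and 0.26 were not called. Iqcb1, Ifngr2, a receptor chain of interferon gamma, and Ankrd13a rose after miR-365a (1.17, 1.03 and 0.53) and had miR-193b differences of -1.25, -1.11 and -1.45.

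**Figure D5:**
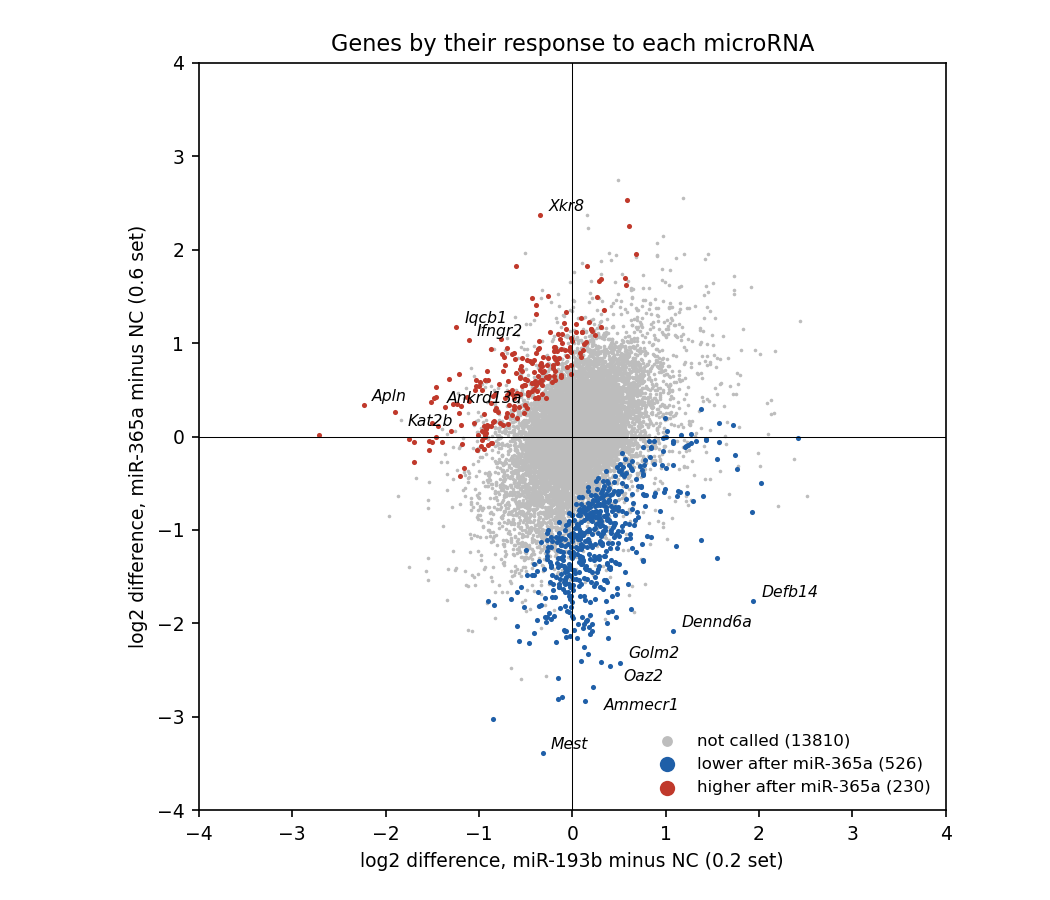
Log2 difference after miR-365a (vertical axis, 0.6 set) against that after miR-193b (horizontal axis, 0.2 set), 1 point for each of 14566 genes above background on all 8 arrays; 526 genes with an effect lower after miR-365a and 230 with a higher one are marked. The first spread mainly downward near a miR-193b difference of 0, where Ammecr1 has 0.22 and Mest -0.32.

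Some genes were above background on one side only and therefore have a bound and no fold. Those well above background on both miR-365a arrays and neither NC array numbered 298, and 71 of them were at least 2-fold higher by the bound. The reverse held for 68, with 37 at least 2-fold lower. A bound sets the mean of the bright group against the dimmer group each array of which is set to the lowest level measured above background, or to the gene itself where that is brighter. Serpinb9f and Serpinb9g, granzyme-inhibiting serpins of a clustered family whose near-identical members may share signal, were at least 14.2-fold and at least 6.93-fold higher. Cyp4b1, a cytochrome P450, was at least 7.13-fold and Htr1d, a serotonin receptor, at least 6.53-fold higher. Prom1, encoding the membrane protein CD133, was at least 7.27-fold lower, with NC levels of -4.34 and -3.10, and the cytokine Il3 at least 5.24-fold lower. Mup4, a member of another family of close paralogs, and Pttg1ip2 were at least 3.98-fold and 3.87-fold lower, the latter with NC arrays far apart at -6.14 and -3.12.

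Where a gene had several probes they mostly moved the same way. Of 806 called genes with more than one probe above background on all 4 arrays, all probes had the sign of the brightest in 715 (88.7%), and all were called in 350. For Ctsa, Ptk2, Srebf2, Hoxa9 and Tfpi a second probe had the same sign and was not called. H2ac15 and Nf2 had no called probe in the fit over all probes. Named genes with a probe of the opposite sign were Dennd6a, Itga6, Lamp2 and Pfn1. The 4 probes of Nfib were all called, from -2.32 to -0.95, as were both probes of Sfmbt1 (-2.40 and -1.19) and of Rbpj (-1.15 and -1.11).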

How the data were processed

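RNA of mSCC-20 cells was measured on 8 single-colour Agilent arrays. The deposited intensity is the scanner software's processed signal (Agilent Feature Extraction, version 10.7.3.1), from which local background and spatial trend were removed, per the file headers; flags mark spots well above background. A deposited table of log2 values of the same arrays, whose processing steps are not given in the sources used here, served as an alternative; the submitters' processing notes name limma. Control spots and flagged outliers were left out, log2 signals were centred on each array's 75th percentile, spots of a probe were averaged, and each gene was represented by its brightest probe over 8 arrays. Of 39429 probes 27597 were named through a RefSeq accession, 3488 through a symbol, 393 through a synonym and 7951 by the file. Probe positions are mm9, per the file headers. Sequences of microRNAs and promoters are those of RefSeq on GRCm38.p6.

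A gene was tested if each of the 4 arrays used here had it well above background; 48 such genes with a missing value were left out. limma 3.58.1 (R 4.3.3) took all 8 arrays, with 1 term for each set and microRNA (4 residual degrees of freedom, prior 2.62), with Benjamini-Hochberg adjustment and calls at 0.05. ± is the standard error of the fit, with 2 arrays per group; an exact permutation test of 2 against 2 cannot go below 0.333. The number of arrays limits the precision. Seed matches were counted over 21827 probes in a fit of their own. The 48 gene lists and the comparison itself were chosen with earlier results of these data known. The rule for named genes took the 12 largest rises and falls with official symbols and no overlap, all reported targets, up to 4 called members of each list by p, 6 differences between the microRNAs, 4 bounds each way, called falls with an 8-base match and the 6 brightest calls; not all genes selected are described, and Cdc20, Espl1, Csf1r, Krt5, Npc1, Npc2, Smpd1, Hif1an, Nme1, Pbdc1, Suclg2 and the EGF receptor genes and ligands that were not called were named after their values were seen. Python 3.11.15 and matplotlib 3.10.9 were used. A few genes that the rule selected are not reported here.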

Additional observations from a re-analysis of the deposited data

How the results depend on the processing

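No paired analysis was run because the labels give no replicate numbers. Whether neighbouring slide positions hold arrays that belong together is not given, and a pairing by position was not tested. The number of genes called after miR-365a lay between 2662 and 3458 in 9 alternatives: the 0.6 set alone, normexp, quantile or median scaling, the deposited log2 values, trended robust variance, the mean over probes, and filters on either side or on all 8 arrays. It was 1070 of 29983 genes without a filter on dim probes, and 675 to 1513 when leaving out one of the 4 arrays in turn; a lone array is then assumed to vary like the others. Of the calls in those 4 fits, 655 to 1365 were among the 2883. Genes whose response differed between the microRNAs numbered 1146 with a trended robust variance, 1103 with normexp, 1100 with the deposited values and 0 to 150 with one array left out. The share of probes with a seed match that fell was 28.7% for bases 2 to 7, 26.7% with the A opposite base 1 added to these (chosen after the data were seen), 1.47% for the reverse complement (likewise) and 29.2% counting only falls of at least 2-fold, against 43.1%. None of 165 genes selected by the naming rule changed sign under the alternatives run. Of 157 called ones, 60 kept their call without any single array and 28 lost it without each. Without a filter on dim probes 61 lost it.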
